A study of Homo sapiens with 12 samples.

Results

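Examined were 10 of the 30238 gene names on the array, the ETS family transcription factors FLI1, ERG, ETS1, ETS2, ETV1, ETV4, ETV5, ELK3, ELF1 and GABPA. Their probes were every non-control feature carrying 1 of these symbols, 20 of 41000. The question was whether FLI1 alone was lower when the fusion gene PAX3-FKHR was knocked down, or whether its relatives were lower with it. FLI1 was itself selected on KD1 vs CON and KD1 vs WT of these arrays, so its ratios in those comparisons are given as a description and without a test.

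The RNA came from Rh30, an established cell line of alveolar rhabdomyosarcoma (ARMS), a childhood tumour of the skeletal muscle lineage that often carries the fusion transcription factor PAX3-FKHR (FKHR is now named FOXO1). WT was untransfected parental Rh30 grown without puromycin. CON was a clone with a non-targeting hairpin and KD1 a clone with a hairpin against PAX3-FKHR, both in the vector pSUPER.retro.puro and both kept in puromycin at 1 μg/mL. Flasks were grown for 24 h before extraction, and 2 biological replicates of each culture were each read on 4 of the 12 2-colour arrays, with a dye-swap pair for every comparison. CON and KD1 are 1 clone each, so what belongs to the hairpin and what belongs to the clone cannot be told apart, and puromycin separates both clones from WT. The KD1 extracts serve both KD1 comparisons, and the CON and WT extracts also serve WT vs CON.

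ETS factors share a DNA-binding domain, the ETS domain, that recognises a GGAA core. FLI1 and ERG are close relatives known for their roles in endothelial cells and megakaryocytes, and both occur in tumour fusions: FLI1 with EWSR1 in Ewing sarcoma, ERG with TMPRSS2 in prostate cancer. Many other members carry signals from growth factor receptors, since ERK kinases phosphorylate them or raise their expression.

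The FLI1 result rested on 1 feature of 60 bases at chr11:128187178-128187237 of NCBI36, plus strand. The ETS-domain probes of ERG (chr21:38677643-38677702, minus strand) and ETS2 (chr21:39115405-39115464, plus strand) are shown with its first 30 bases because they carry the longest stretch these 2 genes share on the array, in the part of the transcript that codes the start of the ETS domain. Capitals mark that shared run of 11 bases.
FLI1 probe, bases 1 to 30: gggctgtttaagtcactgacttatgagaaa
ERG probe: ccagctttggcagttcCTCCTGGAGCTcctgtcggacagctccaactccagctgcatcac
ETS2 probe: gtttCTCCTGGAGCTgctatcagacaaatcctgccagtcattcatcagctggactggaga
Between the FLI1 probe and the 19 probes of the other members, read in the same orientation, the longest identical run was 4 to 6 bases.

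Neither gene joined in the targeted fusion passed the limma test in a KD1 comparison. For the fusion itself, the paper reports lower mRNA and protein in KD1 than in CON. The brighter FOXO1 probe had mean log2 ratios of -0.42 ± 0.23 (SD, n = 2) against CON and -0.60 ± 0.26 against WT, with limma adjusted p = 0.432 and 0.272. The brightest PAX3 probe gave -0.42 ± 0.04 and -0.39 ± 0.08, with limma adjusted p = 0.326 and 0.374. The other FOXO1 probe had means of -0.39 and -0.30, and the other PAX3 probes had -0.28 and -0.25, and -0.09 and 0.06. In the last of these the replicates split, with 0.16 and -0.33 against CON and 0.26 and -0.15 against WT. Which of these probes lie in the part of each gene that the fusion keeps was not analysed here. Of 11 muscle and ARMS markers, DES, MYOD1 and MYOG were well above background on all 8 arrays of every culture and TFAP2B on none. MYOG, a driver of muscle differentiation, had replicate ratios of -1.35 and -0.92 in KD1 vs CON (limma adjusted p = 0.0505). In KD1 vs WT they were 0.74 and 0.46 (limma adjusted p = 0.226). MYOG was lower in WT than in CON (mean log2 ratio -1.73, limma adjusted p = 0.0183). It kept that call with values per extract and the replicate block (limma adjusted p = 0.0475) and lost it without CON replicate 1 or 2 or WT replicate 1 or 2 (limma adjusted p = 0.104 to 0.270). Of 5 blood cell markers, PTPRC and SPI1 were well above background on no array, while CD53 had mean log2 ratios of 3.47 against CON and 3.41 against WT in KD1 (limma adjusted p = 0.0148 and 0.0226). With values per extract and the replicate block these were 3.20 and 3.68, past the threshold in neither (limma adjusted p = 0.0612 and 0.0586). CD34 had -0.60 and 0.60 and HCLS1 0.62 and 0.48, and neither was called. The summed signal of these 5 probes was 451 to 848 in KD1, 170 to 575 in CON and 124 to 323 in WT, and its part in the FLI1 values was not tested. The FLI1 level and the members' levels are those of whole cultures, in which fewer cells with a transcript and less RNA per cell cannot be told apart.

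FLI1 was at background in KD1 and well above it in both other cultures. Its processed signal, the background-subtracted and dye-normalised brightness in arbitrary units, was 2.57, 3.58 and 6.78 (lowest, median and highest of 8 arrays) in KD1. In CON it was 48.7, 63.9 and 99.1. In WT it was 111, 142 and 245. The 3 cultures did not overlap. By the scanner software's flag, the probe stood well above background on all 8 arrays of CON and all 8 of WT, and on 0 of the 8 arrays of KD1.

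Because no KD1 reading was well above background, the size of the fold change is not well determined. Each KD1 reading was therefore set no lower than the dimmest signal well above background on its array. FLI1 was then 16.7-fold lower in KD1 than in CON and 34.3-fold lower than in WT. Before dye normalisation, the negative controls' 99th percentile reached 40.6 on an array, so these folds are not strict lower bounds. The measured log2 ratios were larger in size and rest on KD1 values at background. Against CON the replicates gave -4.31 and -3.91 (mean -4.11 ± 0.28, SD, n = 2). Against WT they gave -5.17 and -5.20 (mean -5.18 ± 0.025). All 8 arrays with KD1 were on the same side, from -4.62 to -3.46 against CON and from -5.64 to -4.69 against WT.

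**Figure D1:**
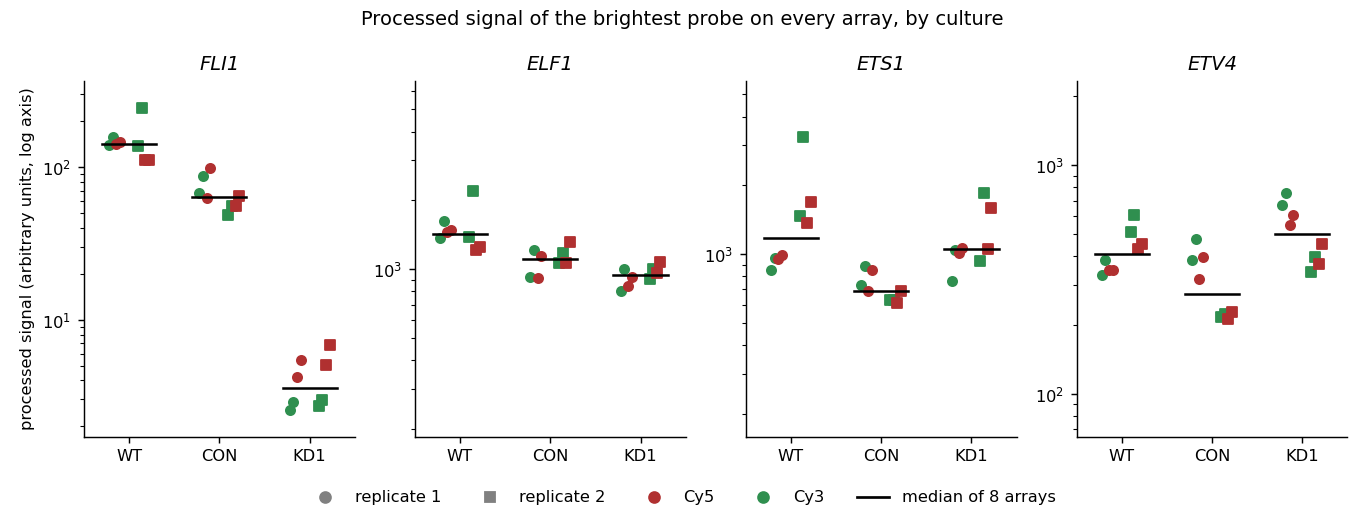
Processed signal (arbitrary units, log axis) of the brightest FLI1, ELF1, ETS1 and ETV4 probe in WT, CON and KD1, with a point per array, shape for the replicate, colour for the dye and a line at the median of 8 arrays. The vertical scales differ between genes, and the FLI1 points of KD1 lie between 2.57 and 6.78, below every CON and WT point.

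The FLI1 ratio was smaller under a change of both background correction and normalisation. With normexp, which adds an offset of 50 to every signal, more than any KD1 reading of FLI1, and loess within each array, its mean log2 ratio was -0.43 against CON and -0.91 against WT. The sign was the same in both, and the share of each step in the change was not tested. FLI1 also missed the filter on dim probes in KD1 vs CON, where it rose above the negative controls' 99th percentile in at least 1 channel on 3 of 4 arrays.

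In WT vs CON, which took no part in choosing FLI1, it was somewhat higher in WT. The replicate ratios were 0.71 and 1.14 (mean 0.93 ± 0.30, SD, n = 2), positive on all 4 arrays. The limma adjusted p was 0.0937, so the difference did not pass the threshold of 0.05, its 95% interval before adjustment was 0.42 to 1.43, and the adjusted p ran from 0.0776 to 0.71 over the 14 alternatives with a test. No member passed this test: 0 of 10 members' brightest probes were called in WT vs CON, where 1.42% of all tested probes were, or 377, against 131 with values per extract and the replicate block. FLI1 had the lowest p of the 10. Without adjustment FLI1 and ETS1 were under 0.05, as were 16.5% of all probes tested, so nothing is read from this count. The brightest ETS1 probe had unlike replicate ratios of 0.16 and 1.19, and the other 2 ETS1 probes were not under 0.05.

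No other member came near FLI1 in size. Genes well above background on all 8 arrays of at least 1 culture were at least 2-fold lower in KD1 in both comparisons in 1.10% of cases (208 of 18922), and among the 10 members FLI1 was the 1 that was. This set of genes was taken after FLI1 was seen to miss the dim-probe filter, and FLI1 enters it through CON and WT. Under the negative control filter in both comparisons 0 of 8 members were 2-fold lower, so nothing is read from the count. In the 19 probes of the other 9 genes, mean log2 ratios ran from -0.45 to 0.84 with CON as the reference and from -0.61 to 0.75 with WT, so none reached 2-fold either way. The medians of the 9 brightest probes were 0.05 and 0.00, beside -0.02 and 0.00 for all genes that passed the filter. In limma over all probes, 1.81% were called with CON as the reference and 1.09% with WT, or 396 and 272 probes, against 161 and 111 with values per extract and the replicate block. In the first fit, 0 of 8 and 1 of 9 tested members were called, the 1 being FLI1, and nothing is read from these counts because the rule used the same comparisons.

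**Figure D2:**
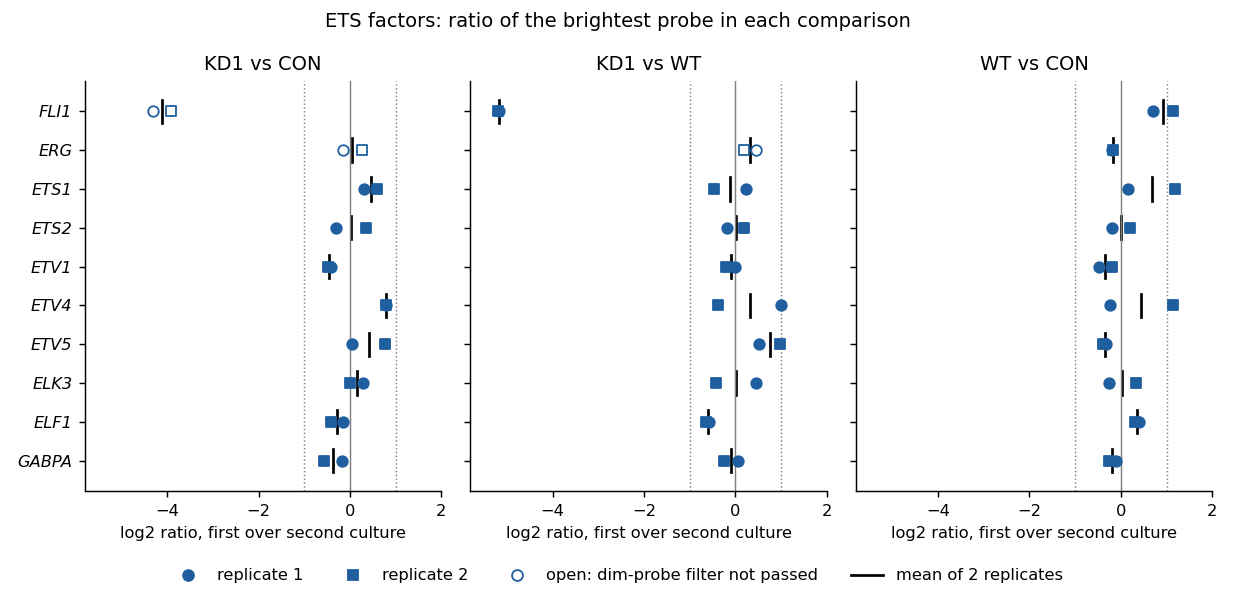
Log2 ratio of each gene's brightest probe (first culture over second) in KD1 vs CON, KD1 vs WT and WT vs CON, with circles and squares for the 2 replicates, a bar at their mean, dotted lines at 2-fold and open symbols where the probe missed the dim-probe filter. FLI1 stands at -4.11 and -5.18 in the KD1 panels while the means of the other 9 genes lie between -0.61 and 0.79.

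ERG, the closest relative of FLI1, was measured by 1 of its 3 probes. Those at chr21:38676351-38676410 and chr21:38696356-38696415 were well above background on no array, and no fold is given for them. The ETS-domain probe printed above was well above background on all 8 arrays of each culture. Its signal had medians of 58.7 in KD1, 47.0 in CON and 42.2 in WT, with overlapping ranges. KD1 had replicate ratios of -0.16 and 0.26 against CON and of 0.45 and 0.19 against WT, both below the dim-probe filter. In WT vs CON they were -0.19 and -0.18 (limma adjusted p = 0.727). ERG was thus read by 1 probe, which was on the negative side of CON in replicate 1 of KD1 and on the positive side in replicate 2.

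ETS1 and ETS2 are founding members of the family and known targets of ERK phosphorylation. The brightest ETS1 probe had signals from 766 to 1846 in KD1, 610 to 884 in CON and 855 to 3272 in WT. KD1 had replicate ratios of 0.31 and 0.59 against CON but of 0.23 and -0.46 against WT. WT vs CON also differed in size between replicates, at 0.16 in replicate 1 and 1.19 in replicate 2 (limma adjusted p = 0.279), and subtracting the KD1 ratios, from arrays on other slides but of the same extracts, gave 0.09 and 1.05. In the other 2 ETS1 probes WT vs CON also differed between replicates, at -0.58 and 0.69 and at -0.42 and 0.79. On the array of KD1 and WT, replicate 2, with KD1 in Cy5, the brightest probe read -1.04, while its dye swap read 0.12.

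The brightest ETS2 probe had the smallest mean log2 ratio, in either direction, of the members' brightest probes in each comparison. These means came from replicates of opposite sign, and single arrays of KD1 vs CON ran from -0.56 to 0.57. The probe had medians of 2717 in KD1, 2496 in CON and 2716 in WT. For KD1 the replicate ratios were -0.32 and 0.35 against CON and -0.19 and 0.20 against WT, and those of WT vs CON were -0.19 and 0.21 (limma adjusted p = 0.991). Each comparison thus held a negative and a positive replicate. The ETS-domain probe of ETS2 differed from it in KD1 vs WT, with 0.20 and 0.65, and in WT vs CON, with -0.38 and -0.33 (limma adjusted p = 0.468).

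ETV1, ETV4 and ETV5 form the PEA3 group, whose expression is known to follow FGF and ERK signalling. The group did not move as a block. ETV1 was slightly lower in KD1 than in CON, with -0.42 and -0.47 for the brightest probe, and close to 0 in replicate 1 of KD1 vs WT, with -0.21 in replicate 2. Its other probe gave 0.13 and -0.69 against CON and -0.44 and -0.64 against WT. Both ETV1 probes thus had negative means against CON and WT, at -0.45 and -0.10 for the brightest and -0.28 and -0.54 for the other. They did not rank CON and WT alike, with WT vs CON means of -0.34 and 0.27.

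ETV4 gave the highest ratio against CON, and both of its probes showed it. The replicates were 0.80 and 0.78 for the brightest probe and 0.75 and 0.92 for the other, positive on all 4 arrays. Against WT the replicates split, with 1.00 and -0.38 for the brightest probe and 1.00 and -0.21 for the other. WT vs CON split with the opposite signs, at -0.24 in replicate 1 and 1.14 in replicate 2 (limma adjusted p = 0.585) for the brightest probe. Its signal in CON was 213 to 474, in WT 329 to 605 and in KD1 340 to 759. The ranges overlapped in all 3 pairs of cultures.

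ETV5 gave the highest ratio against WT. The brightest probe had 0.52 and 0.97 in that comparison, and 0.05 and 0.76 against CON. The other probe had 0.40 and 0.85, and 0.41 and 0.69. Each of these values was above 0, and none of the means reached 2-fold. In WT vs CON both probes were slightly negative, with means of -0.36 ± 0.05 and -0.21 ± 0.05 (SD, n = 2; limma adjusted p = 0.495 and 0.685).

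ELK3, a ternary complex factor that works with SRF, had signal medians of 149 in KD1, 126 in CON and 135 in WT. KD1 gave 0.28 and 0.01 against CON and 0.44 and -0.42 against WT, and WT vs CON gave -0.26 and 0.32 (limma adjusted p = 0.967). Both comparisons with WT turned sign between the replicates.

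ELF1, known for its binding to genes of lymphoid cells, was the nearest to FLI1 in direction. Its brightest probe was lower in KD1 on all 8 arrays, which held for 8.12% of genes well above background on all 8 arrays of a culture and, among the members, for FLI1 and ELF1. The size was small, with -0.16 and -0.41 against CON and -0.57 and -0.65 against WT. The 2 arrays of replicate 2 against WT differed, at -1.02 with KD1 in Cy5 and -0.27 in its dye swap. The highest WT signal given below came from the first of these. The lowest, median and highest signals were 804, 940 and 1078 in KD1, 912, 1103 and 1315 in CON and 1211, 1418 and 2188 in WT. KD1 and CON overlapped, and KD1 and WT did not. In WT vs CON the replicates were 0.39 and 0.31 (limma adjusted p = 0.436). The dimmer ELF1 probe had the same sign in its replicate means, with -0.15 and -0.41 against CON and -0.16 and -0.63 against WT. Its single KD1 arrays ran from -1.26 up to 0.28. The ELF1 probes lie on chromosome 13, 374 kb from the brighter FOXO1 probe described above, which was also lower on all 8 KD1 arrays. The other FOXO1 probe, 376 kb away, was lower on 4 of 4 arrays against CON and 3 of 4 against WT. A link between the ELF1 and FOXO1 values was not tested.

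GABPA, which pairs with GABPB subunits and is known for regulating nuclear genes of the mitochondria, was lower in KD1 than in CON with -0.17 and -0.57, and had 0.05 and -0.25 against WT. In WT vs CON it had -0.12 and -0.25 (limma adjusted p = 0.725). Its signal ranges were 328 to 471 in KD1, 418 to 588 in CON and 362 to 528 in WT, and they overlapped.

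**Figure D3:**
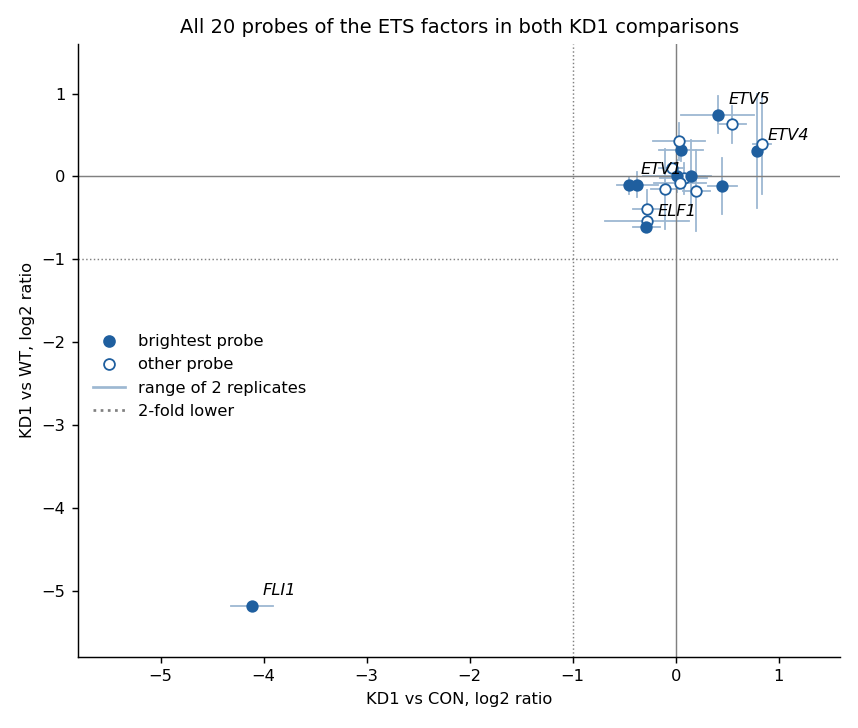
Mean log2 ratio of all 20 probes in KD1 vs CON (horizontal) and KD1 vs WT (vertical), with filled points for the brightest probe of a gene, open points for other probes, light bars for the range of 2 replicates and dotted lines at 2-fold lower. The 19 probes of the other 9 genes lie inside the dotted lines, and FLI1 lies at -4.11 and -5.18.

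The rest of the family gave no call. Of 18 further ETS genes, 17 had a probe, and 9, 9 and 11 of these passed the filter in KD1 vs CON, KD1 vs WT and WT vs CON. None passed the limma test, and unadjusted p was under 0.05 for 1, 1 and 0 of them, while it was so for 17.2%, 17.2% and 16.5% of all probes tested. Their median log2 ratios were 0.03, 0.02 and -0.12, beside -0.01, 0.01 and -0.03 over all probes tested. The genes of this and the following lists named here were picked after their values were seen. Some had the lowest adjusted p of a list in a comparison, and others did not. ELF2 had -0.42 and -0.67 in KD1 vs CON (limma adjusted p = 0.219). ELF4 had 0.53 and 0.44 in KD1 vs WT (limma adjusted p = 0.261). EHF, ETV3L and SPI1 were well above background on no array. ETV7 missed the filter in all 3 comparisons. Its flag for signal above background was set on 4 KD1 arrays of 8, 1 CON array of 8 and no WT array.

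Partners of ETS factors were all measured and none was called. All 11 passed the filter in each comparison, with medians of 0.26, 0.04 and 0.10 in KD1 vs CON, KD1 vs WT and WT vs CON. Beside the 17.2%, 17.2% and 16.5% of all probes given above, 1, 1 and 0 of the 11 had an unadjusted p under 0.05. That gene was GABPB2, a subunit that binds GABPA. In KD1 its replicate ratios were 0.93 and 0.73 against CON and 0.82 and 0.94 against WT, so every replicate was above 0 (limma adjusted p = 0.0852 and 0.094). EWSR1, SRF and the coactivators EP300 and CREBBP were among the partners that did not pass.

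Feedback and output genes of the ERK pathway were not called either. Of 16 genes, 15 had a probe and all 15 passed the filter. Without adjustment 6, 6 and 8 had p under 0.05, beside the 17.2%, 17.2% and 16.5% of all probes given above, and after adjustment none was under 0.05. The difference between these shares was not tested. The medians were 0.23, 0.25 and -0.34. CCND1, the cyclin D1 gene, had -1.30 and -1.28 in KD1 vs CON (limma adjusted p = 0.108). Its replicates differed in KD1 vs WT, at 0.01 and -1.28, and in WT vs CON, at -1.27 and -0.02. DUSP5, an ERK phosphatase, had 0.76 and 1.14 in KD1 vs WT (limma adjusted p = 0.0902). SPRY2, a feedback inhibitor of receptor signalling, had 1.43 and 0.72 in WT vs CON (limma adjusted p = 0.0924). EGR1, an immediate early gene, differed in size between replicates, with 0.79 and 2.54 in KD1 vs WT and -0.57 and -2.59 in WT vs CON.

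Genes of endothelial cells and megakaryocytes, where FLI1 and ERG are best known, were partly below the filter. Of 16 genes, 6, 10 and 12 were tested and none was called. Before adjustment 1, 3 and 3 were under 0.05, beside the 17.2%, 17.2% and 16.5% of all probes given above. The medians were -0.09, 0.19 and -0.10. VWF, the von Willebrand factor gene, had 1.02 and 3.42 in KD1 vs WT (limma adjusted p = 0.108). CLDN5, an endothelial tight junction gene, had -1.57 and -2.23 in WT vs CON (limma adjusted p = 0.0651). In KD1 vs WT, CLDN5 had 0.65 and 2.26, and EGFL7 went the other way with -1.97 and -0.67 (limma adjusted p = 0.129 and 0.135). KDR and FLT1, the receptors for VEGF, were well above background on no array.

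The genes whose ratios over the 12 arrays were most like those of FLI1 were NETO2, FBN2, GPM6B, NLRX1 and SPESP1. Likeness was the Euclidean distance between log2 ratios, over 15710 genes that passed the filter in both KD1 comparisons, whose median distance from FLI1 was 13.5. FLI1 itself missed this filter in KD1 vs CON. Of the 12 ratios, 8 are those on which FLI1 was chosen, with its KD1 signal at background, so the order is a description. NETO2, which encodes an auxiliary protein of kainate receptors, was nearest at 2.71, with mean ratios of -4.88, -5.59 and 0.86 in KD1 vs CON, KD1 vs WT and WT vs CON. FBN2, the fibrillin 2 gene, followed at 3.23 with -3.38, -4.96 and 1.97. GPM6B, a membrane glycoprotein of neural cells, was at 3.35 with -4.30, -4.99 and 0.60. NLRX1, which lies on chromosome 11 as FLI1 does, was at 3.43 with -3.92, -3.85 and 0.11. SPESP1, a sperm protein gene, was at 3.90 with -5.49, -4.76 and -0.17. Like FLI1, SPESP1 was well above background on no KD1 array, and GPM6B was so on 2 of 8, so their KD1 ratios also rest on values near background.

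FLI1 and ETS1 are neighbours on chromosome 11, with brightest probes 353 kb apart, so genes around them were read as well. Of 12 other gene names with a probe within 1000000 bases of either probe, 3, 5 and 6 passed the filter in KD1 vs CON, KD1 vs WT and WT vs CON. The nearest probe to that of FLI1, 5.62 kb away on the same strand and named S66917 on the array, was well above background on all 8 arrays of every culture. Its mean ratios in KD1 were -0.10 ± 0.10 against CON and 0.10 ± 0.27 against WT (SD, n = 2), against -4.11 and -5.18 for FLI1. S66917 missed the filter in KD1 vs CON, and whether its probe lies within the FLI1 gene was not analysed. KCNJ1, a potassium channel gene 27.4 kb away, had -0.02 and -0.11 and missed the filter. C11orf45, 87.7 kb away, had -0.57 and -0.22. KCNJ5, another potassium channel gene 105 kb away, had -0.75 ± 0.95 and -0.95 ± 0.79 and missed the filter. No neighbour that passed the filter was 2-fold lower in KD1 vs CON, and 1 was in KD1 vs WT, BX647543 at -1.09 ± 0.65, which is named after its value was seen.

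ERG and ETS2 are neighbours on chromosome 21, with brightest probes 440 kb apart. Of 29 other gene names within 1000000 bases of either probe, 14, 16 and 17 passed the filter. Against CON 10 of 14 were below 0 in KD1 with a median of -0.34, and against WT 10 of 16 with a median of -0.15. Over all genes that passed, 52.1% and 49.4% were below 0 and the medians were -0.02 and 0.00. No neighbour that passed was 2-fold lower in KD1 vs CON, and 1 was in KD1 vs WT, a probe without a gene name at -1.07 ± 0.16. The highest in KD1 vs WT was SH3BGR at 1.86 ± 1.87, and both are given after their values were seen. ERG and ETS2 themselves stood at 0.05 and 0.02 in KD1 vs CON and at 0.32 and 0.00 in KD1 vs WT. The nearest names, CD365380, KCNJ15 and NCRNA00114, missed the filter in all 3 comparisons.

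**Figure D4:**
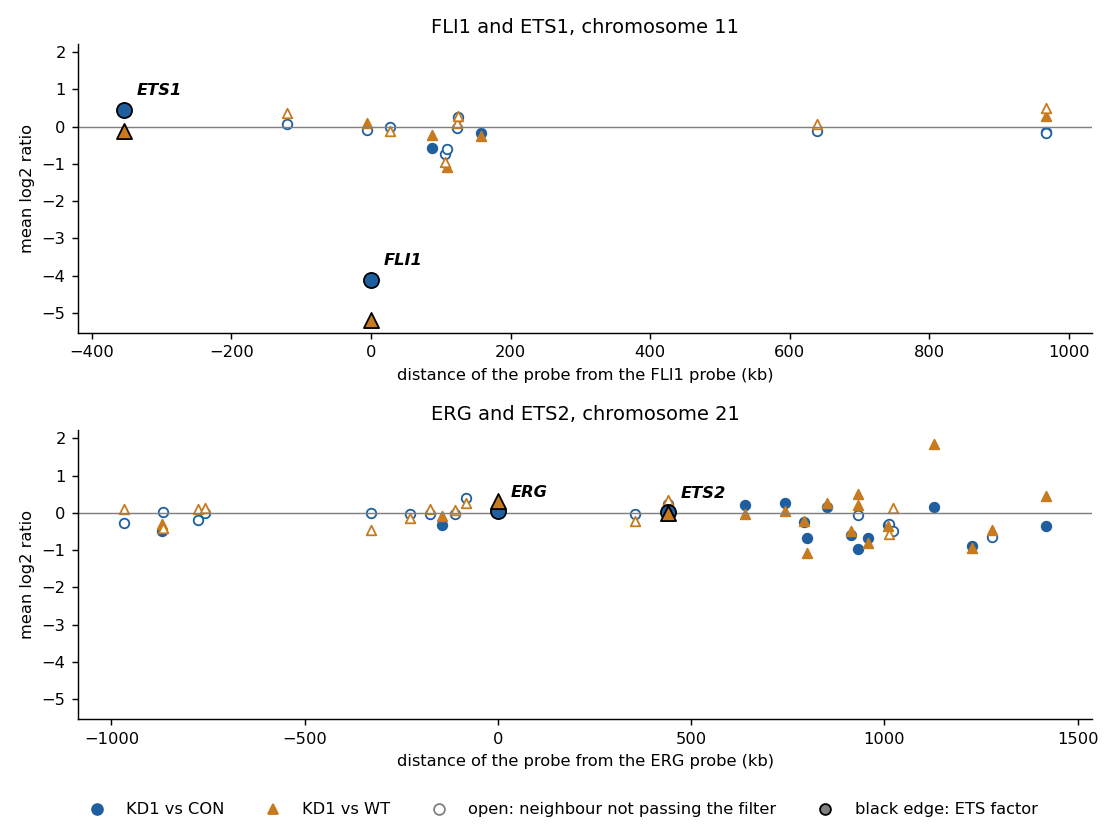
Mean log2 ratio in KD1 vs CON (circles) and KD1 vs WT (triangles) of gene names within 1000000 bases of the FLI1 or ETS1 probe and of the ERG or ETS2 probe, against distance from the FLI1 or ERG probe in kb, with open symbols for neighbours below the dim-probe filter and black edges for the ETS factors. FLI1 stands at -4.11 and -5.18 while its neighbours in the upper panel lie between -1.09 and 0.50.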

How the data were processed

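RNA of WT, CON and KD1 (500 ng per labelling) was read on 12 Agilent 2-colour whole human genome arrays. The authors extracted the arrays with Agilent Feature Extraction 10.5.1.1, per the submitters' processing notes. The deposited intensity columns hold mean, local background, background-subtracted and lowess dye-normalised (processed) signals, the deposited log10 ratio is red over green, and the deposited flags mark outlier, saturated and well-above-background spots. A deposited table of log2 ratios equalled the scanner ratios, with dye swaps already turned, within 5.35e-06, and 0 of its columns went unmatched. Coordinates are those of the file headers, build NCBI36.

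Ratios were recomputed from the processed signals, turned to first culture over second, and averaged first over replicate spots with no outlier flag, then over each dye-swap pair, which gave 6 replicate values. Tests used lmFit and eBayes of limma 3.58.1 (R 4.3.3; a coefficient per comparison, Benjamini-Hochberg over all probes tested, threshold 0.05). Residual degrees of freedom were set to 2, since the 3 ratios of a replicate close on each other. Dim probes were left out: at least 1 channel of every array in the comparison had to lie, after background subtraction, above the 99th percentile of its 153 negative controls. Between 64.4% and 73.6% of spots per channel were well above background, no spot was saturated, and precision is limited by how many arrays there are. The brightest probe stands for a gene. The 16.7-fold and 34.3-fold values use the dimmest signals well above background after Aquantile scaling of the separate channels, which stay open to dye bias.

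Each array held 2 extracts of the same replicate number, so each ratio lies within a number and carries that block. The 4 arrays of WT vs CON shared 1 slide. KD1 arrays of the same replicate number also shared 1 slide, so slide and replicate number of the KD1 arrays cannot be told apart. The limma fit was tested for KD1 vs CON on simulated extracts, drawn without dye, slide or replicate effects. Members and gene lists were chosen with earlier results of these data known. The text names all members, list genes past the threshold (at most 4 per list and comparison), the 5 genes most like FLI1 and up to 4 neighbours by distance, and says where others were added after their values were seen. Alternatives were other background corrections, normalisations, filters, degrees of freedom and probes, values per extract and leaving out replicates.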

Additional observations from a re-analysis of the deposited data

How the results depend on the processing

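FLI1 kept its direction against CON and against WT under every alternative run. With normexp and loess its mean log2 ratio was -0.43 and -0.91, with median centring in place of lowess -4.54 and -5.54, without the replicate block (separate channels) -4.17 and -5.21, and with values per extract and the replicate block -4.16 and -5.13. Leaving out replicate 1 or replicate 2 gave -4.31 to -3.91 and -5.20 to -5.17. The count of members at least 2-fold lower in both KD1 comparisons, 1 as reported, became 0 with normexp and loess, where FLI1 falls short of 2-fold. It also became 0 where both channels had to be well above background and 0 with the negative control filter in both comparisons, as FLI1 drops out under these filters. That last filter and the ones that leave out 1 extract at a time were chosen after seeing the data. No other member was 2-fold lower under any alternative, the lowest being -0.57 against CON and -0.65 against WT. In WT vs CON no alternative called a member, and 3 changed sign: ETS2 to -0.035 with median centring (limma adjusted p = 0.963), and, when 1 extract was left out, ETS2 between -0.19 and 0.21, ETV4 between -0.24 and 1.14 and ELK3 between -0.26 and 0.32.

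The number of probes called in KD1 vs CON, KD1 vs WT and WT vs CON was 396, 272 and 377 as reported. It was 26, 1 and 2 with normexp and loess, 264, 139 and 184 with median centring, 253, 185 and 200 with no filter on dim probes, and 303, 202 and 250 where both channels had to be well above background. Without the replicate block it was 201, 126 and 114, with values per extract and the replicate block 161, 111 and 131, and with 3 residual degrees of freedom 381, 154 and 233. Leaving out 1 extract gave 114 to 479, 21 to 543 and 4 to 955, the lowest without CON replicate 2, WT replicate 1 and WT replicate 1 and the highest without KD1 replicate 1 in each. A single extract thus decides much of these counts. Leaving out a whole replicate number leaves no residual degrees of freedom, so those are values without a test.

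Among the ETS, partner, ERK, and endothelial or megakaryocyte list genes, 0 were called as reported. With 3 residual degrees of freedom 1 was called in KD1 vs CON, GABPB2 (limma adjusted p = 0.0497). Leaving out 1 extract gave 0 to 1, 0 to 4 and 0 to 3 calls. DUSP6 was called without KD1 replicate 1 and CCND1 without either WT replicate, in KD1 vs CON. VWF, EGR1, CLDN5 and PHLDA1 were called without KD1 replicate 1 and EGFL7 without KD1 replicate 2, in KD1 vs WT. TEK, CLDN5 and PHLDA1 were called without either KD1 replicate in WT vs CON, where those fits have 1 residual degree of freedom. Of the marker calls, CD53 lost both with normexp and loess (limma adjusted p = 0.0844 and 0.109). It also lost both without the replicate block (limma adjusted p = 0.0604 and 0.0738) and with 3 residual degrees of freedom (0.0583 and 0.0812). In KD1 vs WT CD53 was lost with median centring (limma adjusted p = 0.0595), and its ratio was 2.56 without KD1 or WT replicate 2. MYOG in WT vs CON was lost with normexp and loess (limma adjusted p = 0.110) and without the replicate block (0.196). The causes of these changes were not tested.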
